A study of Mus musculus with 22 samples.

Results

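Transcripts of 7 subunits of the GABA-A receptor were followed through every library of a study of alcohol and PARP inhibition in the prefrontal cortex (PFC) of mice. The subunits were Gabra2, Gabra3, Gabra4, Gabra5, Gabrb1, Gabrb2 and Gabrd, taken by name from the 39056 genes of the count table. Each name matched 1 Ensembl gene, and all 7 passed the filter on low counts that left 14072 genes for testing. The largest differences were between sample types. Gabrd and Gabra4 were higher on tagged ribosomes than in total-RNA in all 11 animals, and Gabra3, Gabra5 and Gabrb1 were lower in all 11. Against Control, Gabra2 fell with EtOH in both sample types and with EtOH+ABT-888 in total-RNA (log2 fold changes of -1.12, -0.95 and -1.0), and Gabrd fell with EtOH in total-RNA (-0.37).

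GABA-A receptors are chloride channels built from several subunits around a pore, and they carry most fast inhibition in the cortex. Alpha and beta subunits together form the sites at which GABA binds. The alpha subunit sets where the receptor sits and which drugs act on it, and a gamma or a delta subunit completes most receptors. Receptors with the delta subunit, often joined to the alpha4 subunit, lie outside synapses, answer to low ambient GABA and give tonic inhibition. These receptors are among the classical targets of the sedative action of alcohol.

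All mice were males of 8 to 12 weeks on the C57BL/6J background and carried EGFP-Rpl10a, a ribosomal protein with a fluorescent tag, switched on by a tetracycline-controlled activator under the CaMKIIα promoter. In TRAP, an antibody against EGFP pulls down the tagged ribosomes of the PFC lysate and the RNA they hold is sequenced. Total-RNA (INPUT) comes from the same lysate and from every cell type in it. Control mice (n = 3) received saline, EtOH mice (n = 4) received 2 g/kg of alcohol per day, and EtOH+ABT-888 mice (n = 4) received the same alcohol with 25 mg/kg of ABT-888, a PARP inhibitor, added on day 4. Every group was given 2 intraperitoneal injections per day for 4 days, and each mouse gave a TRAP and a total-RNA library. The transgene was present in every group, so no library shows PFC without it. Each of the 22 libraries comes from 1 animal.

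Depth was between 6570957 and 22002618 counted reads in TRAP and between 22132534 and 32421392 in total-RNA. The label of the tagged cells, cortical excitatory neurons, was only in part borne out by marker genes. The summed level of 6 excitatory markers was alike in both, 4250 to 6210 CPM in TRAP and 4070 to 5090 CPM in total-RNA. CPM are counts scaled to a common library size with TMM factors. Among these markers, Slc17a7 (log2 fold change -1.13), Neurod6 (-2.23) and Tbr1 (-1.19) were lower in Control_TRAP than in Control_total-RNA, Nrgn was higher (1.20), and Camk2a was not called (-0.17). All 8 markers of striatal projection neurons were higher in TRAP, by 2.47 to 3.62, and their sum was 9570 to 13400 CPM in TRAP against 941 to 1980 CPM in total-RNA. The sum of 8 interneuron markers was 1670 to 2300 CPM against 733 to 1040 CPM, carried by Gad1, Gad2 and Slc32a1, which striatal projection neurons also express, while Pvalb, Lhx6 and Dlx1 were lower in TRAP. Markers of astrocytes, microglia, oligodendrocytes and vessels were lower in TRAP. The astrocyte sum, for example, was 43.7 to 207 CPM against 915 to 1190 CPM. These shifts run along with every comparison of TRAP with total-RNA, and their part in the subunit results was not tested. In bulk RNA, fewer cells of a type and less RNA per cell cannot be told apart.

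The genes lie on 5 chromosomes of mm10. Gabra2 (chr5:70957597-71095849, minus strand), Gabra4 (chr5:71569749-71658308, minus) and Gabrb1 (chr5:71658113-72149037, plus) form a cluster on chromosome 5 with Gabrg1. Gabra4 and Gabrb1 are transcribed away from each other from overlapping starts, sharing 196 bases of gene span and 46 bases of exon. Gabra3 is at chrX:72432681-72656848 (minus), Gabra5 at chr7:57407672-57510059 (minus), Gabrb2 at chr11:42419757-42629028 (plus) and Gabrd at chr4:155384980-155398112 (minus). Of the exon bases of Gabra5, 148 (4.98%) lie under the antisense gene Gm9962, which has no row in the table. The strand setting of the counting is not given in the sources used here, so reads from the stretch that Gabra4 and Gabrb1 share could have been counted for either gene, and reads from Gm9962 could have been counted for Gabra5.

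Gabra2 is the member that changed with treatment in most comparisons, and the 250 bases before its annotated start are therefore shown, from RefSeq (GRCm38.p6), at chr5:71095850-71096099, minus strand, 5′ to 3′.
Gabra2: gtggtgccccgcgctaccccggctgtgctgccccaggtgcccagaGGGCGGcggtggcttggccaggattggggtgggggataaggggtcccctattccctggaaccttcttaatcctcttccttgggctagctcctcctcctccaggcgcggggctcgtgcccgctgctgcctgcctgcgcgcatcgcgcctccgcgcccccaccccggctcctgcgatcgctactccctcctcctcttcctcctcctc
The capitals mark a GC box (GGGCGG), the only match among 4 short motifs searched on both strands. The others were the cyclic AMP response element half-site (TGACG), the E-box (CACGTG) and the glucocorticoid response element half-site (AGAACA). Over the same window of all 32851 RefSeq promoters, a GC box was found in 32.7%, TGACG in 17.8%, CACGTG in 6.0% and AGAACA in 16.1%, so that a GC box is common. The stretch is 70.0% G and C, with 18 CG dinucleotides, and holds no annotated exon. RefSeq promoter sequences were at hand for 6 of the 7 members.

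**Figure D1:**
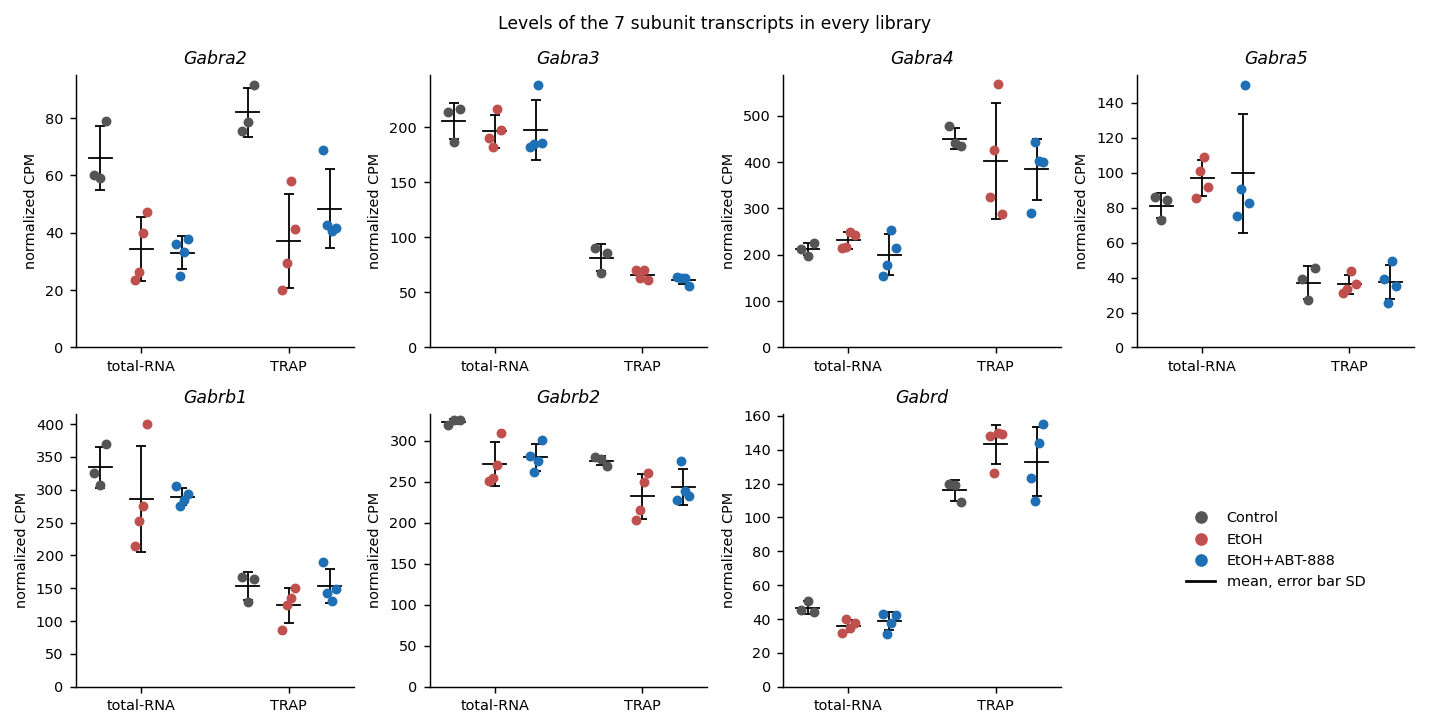
Normalized CPM of each subunit transcript (y axis, from 0) in total-RNA and TRAP (x axis) for Control (grey), EtOH (red) and EtOH+ABT-888 (blue). Each point is 1 library, the horizontal line is the group mean and the error bar is the SD. Gabra3, Gabra5 and Gabrb1 lie lower in TRAP, Gabra4 and Gabrd higher, and Gabra2 is highest in Control in both sample types.

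Levels of different genes were compared as CPM per kilobase of exon. In Control_total-RNA, Gabra3 (52.5 ± 4.21 CPM per kilobase, SD, n = 3) and Gabrb2 (50.9 ± 0.458) stood first with overlapping libraries. Gabra4 (34.8 ± 2.17) followed, then Gabra5 (27.2 ± 2.42) and Gabrb1 (24.1 ± 2.30), which overlapped, then Gabrd (16.3 ± 1.25) and last Gabra2 (8.64 ± 1.47). Gabra3 is an alpha subunit best known from deep cortical layers and from monoamine neurons, and Gabrb2 is the usual beta partner of the most common cortical receptor. The order in Control_TRAP was different. Gabra4 (74.0 ± 3.82) stood first, clear of Gabrb2 (43.4 ± 0.774) and Gabrd (40.4 ± 2.16), then came Gabra3 (20.8 ± 3.09), and Gabra5 (12.5 ± 3.09), Gabrb1 (11.1 ± 1.52) and Gabra2 (10.7 ± 1.11) overlapped at the end.

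In EtOH_total-RNA and EtOH+ABT-888_total-RNA, Gabra3 and Gabrb2 again had the highest means. Gabrb1, Gabrd and Gabra2 had the lowest, at 20.6 ± 5.79, 12.6 ± 1.22 and 4.48 ± 1.46 CPM per kilobase with EtOH (SD, n = 4). Gabra4 and Gabra5 stood between these and overlapped in both groups, as did Gabra3 and Gabrb2. With EtOH, Gabrb2 also overlapped Gabra4, and Gabra5 overlapped Gabrb1. With EtOH+ABT-888, Gabrb2 overlapped Gabra5, which reached 50.3 CPM per kilobase against 47.3 for Gabrb2. In EtOH_TRAP, Gabrd (49.9 ± 4.04) had a higher mean than Gabrb2 (36.5 ± 4.27), with no overlap, and Gabra4 (66.1 ± 20.6) overlapped Gabrd. In EtOH+ABT-888_TRAP the 3 came in the same order, with Gabra4 at 63.1 ± 10.8, Gabrd at 46.2 ± 7.04 and Gabrb2 at 38.4 ± 3.42, each overlapping the next. Gabra2 had the lowest mean level of the 7 in all 6 groups. The order depends on the length used. With the longest coding transcript instead of all exons, Gabrb2 stood above Gabra3 in the 3 total-RNA groups, and in EtOH_total-RNA Gabra4 did too. Gabrd then stood above Gabrb1 in Control_total-RNA, Gabra4 above Gabra5 in EtOH+ABT-888_total-RNA, and Gabra2 was the fifth in Control_TRAP.

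As shares of the summed level of the 7 transcripts, Gabra4 made up 16.2% ± 0.243 in Control_total-RNA and 34.8% ± 1.09 in Control_TRAP (SD, n = 3), and Gabrd made up 7.61% ± 0.963 and 19% ± 1.30. The tonic pair Gabra4 and Gabrd thus took a larger part of the TRAP sum in every library. Gabra3 made up 24.5% ± 0.944 and 9.74% ± 1.08, and Gabrb2 23.8% ± 1.24 and 20.4% ± 0.917. With EtOH, the share of Gabrd in TRAP was 25.8% ± 3.61 (n = 4) and with EtOH+ABT-888 23.9% ± 3.17. The share of Gabra2 was 5.05% ± 0.597 in Control_TRAP, 2.43% ± 0.799 in EtOH_TRAP and 3.32% ± 1.16 in EtOH+ABT-888_TRAP. Shares move together by construction and were not tested.

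**Figure D2:**
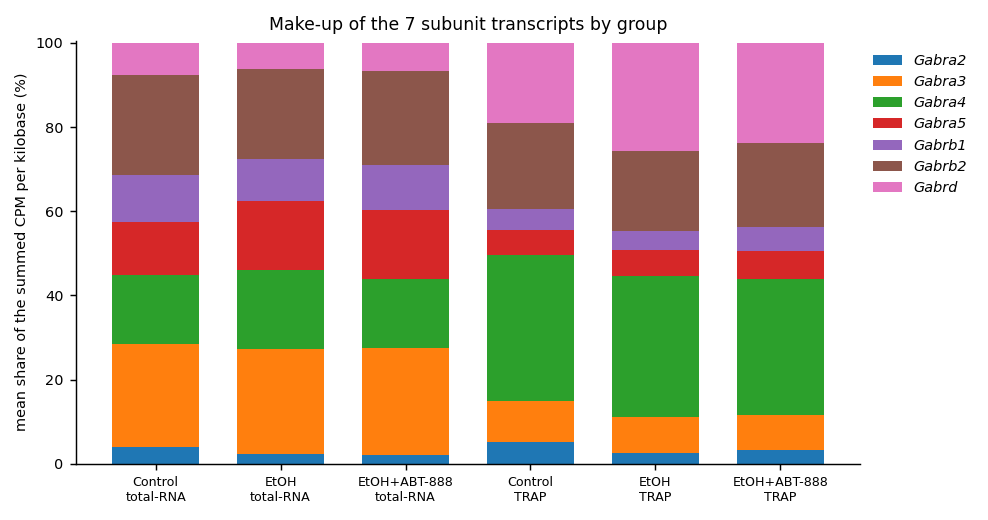
Mean share in percent (y axis, 0 to 100) of each of the 7 transcripts in their summed CPM per kilobase of exon, as stacked bars for the 6 groups (x axis). Gabra4 (green) and Gabrd (pink) take larger parts in the TRAP bars than in the total-RNA bars, and Gabra3 (orange) a smaller part.

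The comparison of TRAP with total-RNA asks which transcripts stand higher or lower on tagged ribosomes than in the tissue. TRAP holds RNA of tagged cells and total-RNA that of every cell type. Differences between cell types and differences in ribosome engagement therefore cannot be told apart in it. In Control, 6 of the 7 members were called by edgeR's quasi-likelihood test, 2 higher in TRAP and 4 lower. In EtOH and in EtOH+ABT-888, 5 were called, 2 higher and 3 lower. Among all 14072 genes tested the calls were 59.9% in Control, 50.7% in EtOH and 41.0% in EtOH+ABT-888, so a called member is no rarity here. The share of all genes whose TRAP and total-RNA libraries do not overlap was not counted, and nothing particular to the members is read from such a separation. A call means an adjusted p-value under 0.05 after Benjamini-Hochberg adjustment over all genes tested.

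Gabrd, the delta subunit of receptors outside synapses, had 45.6, 50.8 and 43.9 CPM in the Control_total-RNA libraries and 120, 119 and 109 CPM in the Control_TRAP libraries. Every TRAP library lay above every total-RNA library. The log2 fold change was 1.29 (95% interval 1.08 to 1.51, adjusted p = 9.78e-07 by edgeR), 1.97 in EtOH (1.69 to 2.25, adjusted p = 1.87e-06) and 1.78 in EtOH+ABT-888 (1.42 to 2.15, adjusted p = 1.58e-05). In EtOH this placed it 27th of 14072 genes by p-value.

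Gabra4, the alpha subunit that joins Gabrd in many forebrain receptors, had 213, 198 and 225 CPM in Control_total-RNA and 477, 440 and 434 CPM in Control_TRAP. Its log2 fold change was 1.07 (0.88 to 1.26, adjusted p = 1.42e-06), 0.78 in EtOH (0.37 to 1.20, adjusted p = 0.00496) and 0.94 in EtOH+ABT-888 (0.54 to 1.34, adjusted p = 0.0019). The groups did not overlap in any treatment, though EtOH_TRAP was wide, from 288 to 568 CPM. Both genes are known to be expressed in the striatum, and the striatal markers named above were higher in the same TRAP libraries. Their part in these differences was not tested.

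The members that were lower in TRAP in all 3 treatments were 2 alpha subunits and a beta subunit. Gabra3 had 214, 187 and 217 CPM in Control_total-RNA and 90.8, 67.9 and 86.1 CPM in Control_TRAP, and its log2 fold changes were -1.35, -1.59 and -1.69 in Control, EtOH and EtOH+ABT-888 (adjusted p = 2.88e-06, 3.4e-06 and 9.18e-06). Gabra5, an alpha subunit of deep cortical layers and hippocampus, had 85.9, 72.8 and 84.4 CPM against 39.2, 27.1 and 45.2 CPM. Its log2 fold changes were -1.14, -1.44 and -1.41 (adjusted p = 0.000102, 2.07e-05 and 0.0011). Gabrb1, a beta subunit, had 326, 307 and 369 CPM against 167, 129 and 164 CPM, with log2 fold changes of -1.14, -1.22 and -0.92 (adjusted p = 8.18e-06, 0.000619 and 0.0004). For these 3 genes no TRAP library reached the lowest total-RNA library of its treatment. Gabrb1 and Gabra4, which start side by side on opposite strands, thus differed in opposite directions. Astrocytes also express Gabrb1, and the astrocyte markers were lower in the same libraries, and their part in this was not tested.

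Gabrb2 and Gabra2 differed less between the sample types. Gabrb2 had 320, 326 and 325 CPM in Control_total-RNA against 280, 278 and 270 CPM in Control_TRAP, a log2 fold change of -0.25 (-0.41 to -0.08, adjusted p = 0.0145). This call was lost without Control_total-RNA animal 4 (-0.24, adjusted p = 0.058) and when 1 model was fitted to the 22 libraries together (-0.23, adjusted p = 0.113). In EtOH it was -0.24 (-0.52 to 0.04, adjusted p = 0.137) and in EtOH+ABT-888 -0.20 (-0.46 to 0.07, adjusted p = 0.214). With the animal as a block, the EtOH value was -0.25 and was called (adjusted p = 0.0375). Gabra2, an alpha subunit of synapses on cell bodies and the initial part of axons, had 60.2, 59.0 and 79.0 CPM in Control_total-RNA and 75.6, 78.8 and 91.6 CPM in Control_TRAP, groups that overlapped. Its log2 fold changes were 0.30 in Control (0.02 to 0.58, adjusted p = 0.0605), 0.11 in EtOH (-0.57 to 0.79, adjusted p = 0.798) and 0.55 in EtOH+ABT-888 (0.08 to 1.02, adjusted p = 0.0579). With the animal as a block it was called in Control (0.30, adjusted p = 0.00849) and in EtOH+ABT-888 (0.53, adjusted p = 0.0126). Without the filter it was called in Control (0.29, adjusted p = 0.036), and by edgeR's exactTest in EtOH+ABT-888 (0.55, adjusted p = 0.0451). It was also called in Control without Control_TRAP animal 4 (0.33, adjusted p = 0.0384) or Control_total-RNA animal 7 (0.44, adjusted p = 0.00978), and in EtOH+ABT-888 without EtOH+ABT-888_TRAP animal 10 (0.62, adjusted p = 0.0375).

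**Figure D3:**
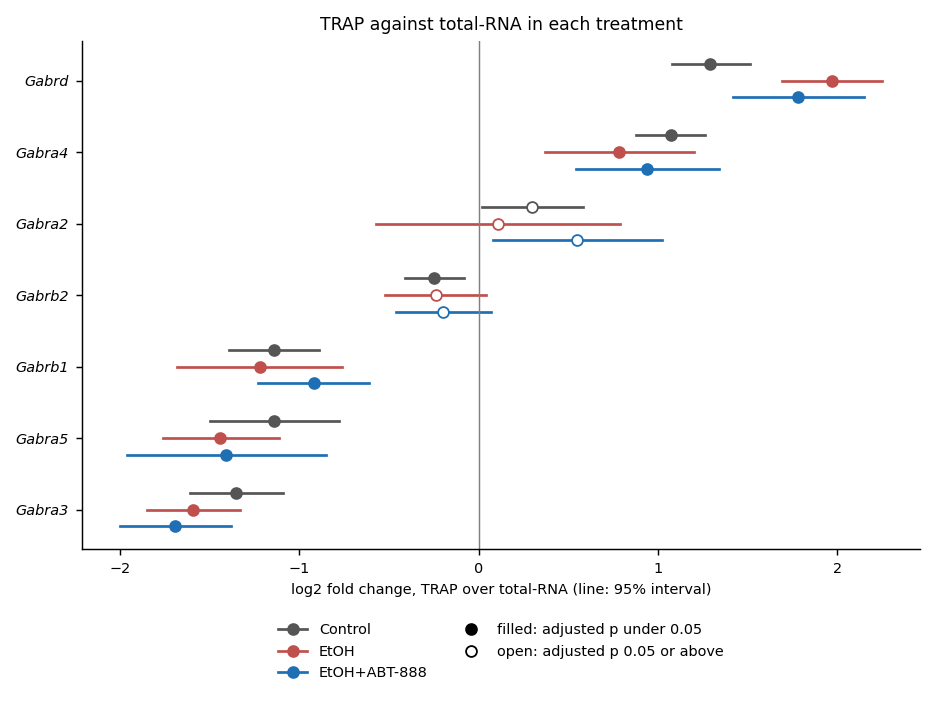
Log2 fold change of TRAP over total-RNA (x axis) with its 95% interval for each subunit (y axis) in Control (grey), EtOH (red) and EtOH+ABT-888 (blue), filled where the adjusted p-value was under 0.05. Gabrd and Gabra4 lie to the right of 0 and Gabrb1, Gabra5 and Gabra3 to the left in all 3 treatments.

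Each animal gave both libraries, so the difference can also be read within animals. The difference in log2 CPM, TRAP minus total-RNA, was between 1.23 and 2.21 for Gabrd and between 0.25 and 1.33 for Gabra4, above 0 in 11 of 11 animals. It was between -1.92 and -1.24 for Gabra3, between -1.82 and -0.90 for Gabra5 and between -1.42 and -0.68 for Gabrb1, above 0 in 0 of 11. Gabra2 was higher in TRAP in 9 of 11 animals, with a range of -0.26 to 0.93, and Gabrb2 in 1 of 11, with a range of -0.37 to 0.07. The animals in which Gabra2 was lower in TRAP were animals 2 and 9, both of the EtOH group. How many of all genes differ in the same direction in every animal was not counted.

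**Figure D4:**
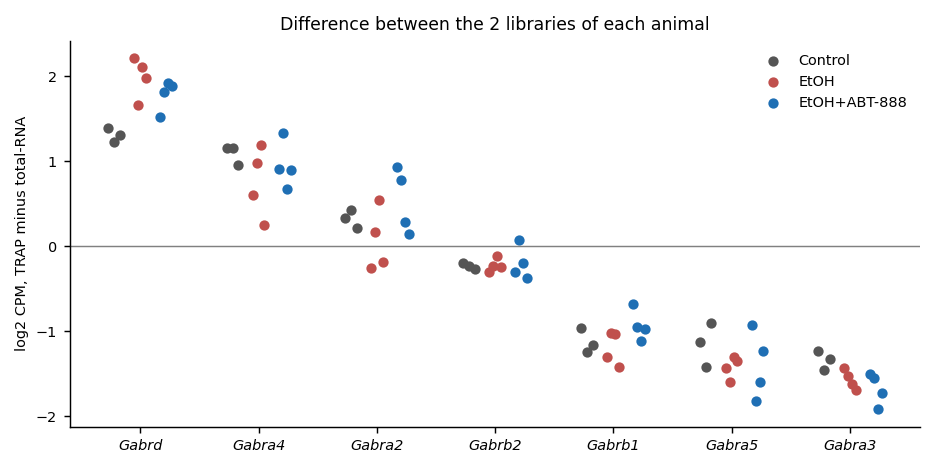
Difference in log2 CPM between the TRAP and the total-RNA library of each animal (y axis) for each subunit (x axis), with 1 point per animal, coloured grey for Control, red for EtOH and blue for EtOH+ABT-888. All 11 points are above 0 for Gabrd and Gabra4 and below 0 for Gabrb1, Gabra5 and Gabra3.

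The effect of alcohol was read against Control in each sample type. In TRAP, 1 member was called for EtOH (5.24% of all genes tested were called) and 0 for EtOH+ABT-888 (0.476%). In total-RNA, 2 were called for EtOH (17.6%) and 1 for EtOH+ABT-888 (0.263%). These calls were all lower, and they fell on Gabra2 and Gabrd. Both treatments share the Control libraries, so their values are not independent. Where libraries of the groups compared do not overlap, the share of all genes that separate in this way was not counted. Such a separation is given as a description and adds nothing to a change that was not called.

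Gabra2 had 75.6, 78.8 and 91.6 CPM in Control_TRAP and 19.9, 29.5, 58.0 and 41.3 CPM in EtOH_TRAP. In total-RNA it had 60.2, 59.0 and 79.0 CPM in Control and 23.7, 26.3, 39.8 and 47.2 CPM in EtOH. No EtOH library reached a Control library in either sample type. The log2 fold change was -1.12 in TRAP (-1.73 to -0.50, adjusted p = 0.0414) and -0.95 in total-RNA (-1.40 to -0.50, adjusted p = 0.00996) by edgeR.

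With EtOH+ABT-888, Gabra2 had 69.0, 42.6, 40.5 and 41.6 CPM in TRAP and 36.2, 24.8, 33.4 and 37.7 CPM in total-RNA. These too lay below all Control libraries. The log2 fold change was -1.0 in total-RNA (-1.36 to -0.63, adjusted p = 0.047), where Gabra2 was 28th of 14072 genes by p-value, and -0.75 in TRAP (-1.20 to -0.31, adjusted p = 0.144), which was not called. It was called without the filter (-0.77, adjusted p = 0.0178), by DESeq2 (-0.75, adjusted p = 0.0339) and by exactTest (-0.75, adjusted p = 0.0444). Without EtOH+ABT-888_TRAP animal 3, the library at 69.0 CPM, the TRAP value was -0.96 with an adjusted p of 0.0133.

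The Gabra2 calls depended on single libraries. The EtOH call in TRAP was lost without any of the 3 Control_TRAP libraries or without EtOH_TRAP animal 5 (adjusted p between 0.0919 and 0.166), with log2 fold changes from -1.42 to -0.91 over all libraries left out. The EtOH call in total-RNA was lost without Control_total-RNA animal 7 (-0.80, adjusted p = 0.0567). The EtOH+ABT-888 call in total-RNA was lost without any of the 3 Control libraries or without animal 6 or 11 of its own group (adjusted p between 0.133 and 0.284). The log2 fold changes in those 5 fits were -1.07 to -0.85, and 0 of all genes tested were called in any of them. With a single fit over all 22 libraries, the value in total-RNA was -0.95 for EtOH (adjusted p = 0.101) and -1.0 for EtOH+ABT-888 (adjusted p = 0.224), neither called. The direction was lower in each of these fits.

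Microglia markers in total-RNA and some markers of excitatory neurons were lower along with Gabra2. The summed microglia markers were 330 to 337 CPM in Control_total-RNA, 130 to 191 CPM in EtOH_total-RNA and 130 to 273 CPM in EtOH+ABT-888_total-RNA. In TRAP they were 21.9 to 41.8, 12.1 to 47.4 and 17.6 to 63.6 CPM in the same order and overlapped. Neurod6, a transcription factor of cortical excitatory neurons, was 95.7 to 107 CPM in Control_total-RNA, 36.8 to 65.2 CPM with EtOH and 48.4 to 71 CPM with EtOH+ABT-888. It was lower in both treatments and both sample types, with log2 fold changes of -0.99 and -0.80 in total-RNA (adjusted p = 0.00159 and 0.0471) and -1.68 and -1.73 in TRAP (adjusted p = 0.0116 and 0.0354). Nrgn, a postsynaptic calmodulin-binding protein, was called for EtOH in total-RNA (-0.58, adjusted p = 0.0139) and stood at -0.59 in TRAP (adjusted p = 0.0908). For EtOH in TRAP, Slc17a7 was at -0.77 (adjusted p = 0.19), Tbr1 at -1.10 (adjusted p = 0.138) and Camk2a at 0.47 (adjusted p = 0.0541), none called. In total-RNA these 3 were at -0.12, -0.03 and 0.20. The sum of the 6 excitatory markers overlapped between treatments, at 4190 to 5090, 4070 to 4900 and 4390 to 5050 CPM in total-RNA and 4870 to 6210, 4250 to 5690 and 4410 to 5800 CPM in TRAP. The part of these markers in the Gabra2 results was not tested.

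Gabrd was called for EtOH in total-RNA. There it had 45.6, 50.8 and 43.9 CPM in Control and 32, 40, 34.7 and 37.9 CPM in EtOH, each EtOH library lower, with a log2 fold change of -0.37 (-0.62 to -0.12, adjusted p = 0.0422). This call was lost without any of the 3 Control libraries or without EtOH_total-RNA animal 2 or 8 (log2 fold changes of -0.41 to -0.31, adjusted p between 0.0725 and 0.187), and in the single fit over all 22 libraries (-0.37, adjusted p = 0.187). In TRAP it had 120, 119 and 109 CPM in Control and 148, 126, 150 and 149 CPM in EtOH, each EtOH library higher, with a log2 fold change of 0.32 (0.04 to 0.61, unadjusted p = 0.0302, adjusted p = 0.169), which was not called.

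For EtOH+ABT-888, Gabrd had 42.9, 31.3, 37.9 and 42.1 CPM in total-RNA, all under the Control libraries, and 123, 110, 144 and 155 CPM in TRAP, overlapping them. The log2 fold changes were -0.27 (-0.57 to 0.02, adjusted p = 0.349) and 0.21 (-0.14 to 0.56, adjusted p = 0.639). Neither was called. The summed striatal markers, which include no subunit, were 9800 to 11700 CPM in Control_TRAP, 9570 to 13000 CPM in EtOH_TRAP and 9680 to 13400 CPM in EtOH+ABT-888_TRAP. In total-RNA, where Gabrd was called for EtOH, they were 1180 to 1420, 1320 to 1980 and 941 to 1370 CPM in the same order. Of the 8 striatal markers, Ppp1r1b (0.67, adjusted p = 0.00996) and Tac1 (0.66, adjusted p = 0.0109) were higher there with EtOH and the other 6 were not called. The interneuron markers summed to 835 to 895 CPM in Control_total-RNA, 957 to 1040 CPM in EtOH_total-RNA and 733 to 895 CPM in EtOH+ABT-888_total-RNA, with every EtOH library above Control. The part of these markers in the Gabrd result was not tested.

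No other member was called against Control. Gabrb2 had mean levels in total-RNA of 324 ± 2.91 CPM in Control (SD, n = 3), 272 ± 26.8 in EtOH and 280 ± 16 in EtOH+ABT-888 (n = 4). Its log2 fold changes there were -0.25 (-0.47 to -0.04, adjusted p = 0.0974) and -0.21 (-0.40 to -0.01, adjusted p = 0.287), and in TRAP -0.23 (adjusted p = 0.343) and -0.16 (adjusted p = 0.69). Without EtOH_total-RNA animal 9, the EtOH value in total-RNA was -0.32 and called (adjusted p = 0.0189). Gabrb1 was also called there without that library (-0.43, adjusted p = 0.0179) against -0.22 with it (adjusted p = 0.395), its level in animal 9 being 400 CPM beside 214, 253 and 276 CPM. With EtOH+ABT-888 in total-RNA Gabrb1 was at -0.20 (-0.42 to 0.01), and in TRAP it was at -0.28 with EtOH (-0.70 to 0.13) and 0.01 with EtOH+ABT-888 (-0.36 to 0.38).

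In total-RNA, Gabra5 had 81.0 ± 7.19 CPM in Control and 96.8 ± 10.1 CPM in EtOH, a log2 fold change of 0.26 (0.01 to 0.51, adjusted p = 0.131), and -0.02 in TRAP (-0.46 to 0.42, adjusted p = 0.971). Gabra4 was at 0.13 in total-RNA (-0.09 to 0.34) and -0.14 in TRAP (-0.59 to 0.31) for EtOH. Gabra3 was at -0.06 in total-RNA (-0.28 to 0.16) and -0.28 in TRAP (-0.61 to 0.04) for EtOH. For EtOH+ABT-888 in TRAP, Gabra3 had 55.9 to 64.0 CPM beside 67.9 to 90.8 CPM in Control. Its log2 fold change there was -0.39 (-0.75 to -0.03, adjusted p = 0.372), not called, and in total-RNA it was at -0.05 (-0.32 to 0.22). Gabra4 was at -0.21 in TRAP (-0.58 to 0.15) and -0.08 in total-RNA (-0.43 to 0.27) for EtOH+ABT-888, and Gabra5 at 0.03 (-0.50 to 0.55) and 0.30 (-0.18 to 0.78). The intervals of these 3 genes for EtOH thus hold changes of up to -0.61 and 0.51 that these libraries could not call.

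**Figure D5:**
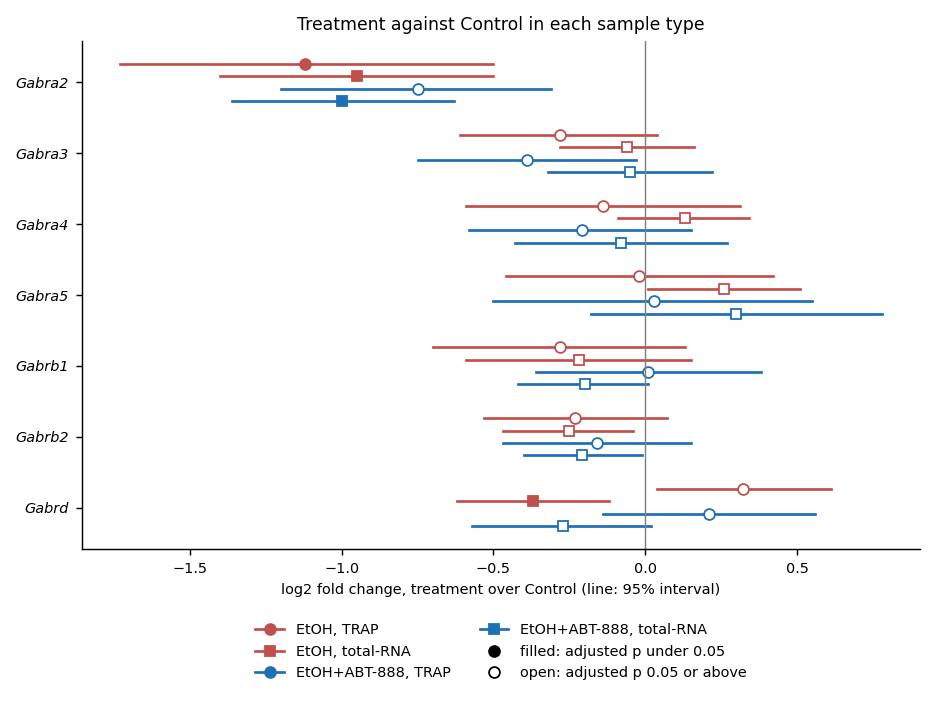
Log2 fold change over Control (x axis) with its 95% interval for each subunit (y axis), for EtOH (red) and EtOH+ABT-888 (blue) in TRAP (circles) and total-RNA (squares), filled where the adjusted p-value was under 0.05. Gabra2 lies left of 0 in all 4 comparisons, and Gabrd lies right of 0 in TRAP and left of 0 in total-RNA.

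Whether ABT-888 altered the subunits beyond alcohol was asked by comparing EtOH+ABT-888 with EtOH. By edgeR, 0 of the 7 members and 0 of all genes tested (0%) were called in TRAP, and likewise 0 members and 0 genes (0%) in total-RNA. At an unadjusted p under 0.05 there were 136 genes in TRAP and 269 in total-RNA, with 0 members among them in either. DESeq2 called 0 genes in TRAP and 2 in total-RNA, and edgeR's exactTest 0 and 2, with 0 members. Gabra2 showed the highest value in TRAP, 0.37 (-0.27 to 1.00, unadjusted p = 0.234), and stood at -0.05 in total-RNA (-0.52 to 0.42). The value of Gabrd was -0.11 in TRAP (-0.45 to 0.23) and 0.09 in total-RNA (-0.20 to 0.39), and that of Gabrb1 0.29 (-0.12 to 0.71) and 0.02 (-0.34 to 0.37). Gabra4 stood at -0.07 in TRAP (-0.54 to 0.40) and -0.21 in total-RNA (-0.53 to 0.11). Gabra3, Gabra5 and Gabrb2 had values between -0.11 and 0.07 in both. These intervals leave room for differences in either direction.

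The interaction of treatment with sample type, fitted over all 22 libraries, asks whether a change from Control is the same on tagged ribosomes as in the tissue. No member was called for EtOH, where 3 genes (0.0213%) were called, nor for EtOH+ABT-888, where 0 genes (0%) were called by edgeR's quasi-likelihood test, 476 had an unadjusted p under 0.05, and DESeq2 called 4. Gabrd had the largest value of the members, 0.68 for EtOH (0.28 to 1.07, unadjusted p = 0.00174, adjusted p = 0.556) and 0.47 for EtOH+ABT-888 (0.08 to 0.87, unadjusted p = 0.0205, adjusted p = 1). By p-value it was 44th of 14072 genes for EtOH. A difference between the sample types in the response of Gabrd was thus not called. This fit did not use the pairing of the libraries by animal. With the animal as a block, 0 members were called in either interaction. Gabra2 stood at -0.19 (-1.02 to 0.64) for EtOH and 0.24 (-0.59 to 1.07) for EtOH+ABT-888, with intervals in the fit without pairing too wide to tell its fall in TRAP from that in total-RNA. Gabra3 was at -0.23 (-0.60 to 0.13) and -0.35 (-0.71 to 0.01), Gabra4 at -0.29 (-0.84 to 0.27) and -0.15 (-0.70 to 0.41), and Gabra5 at -0.29 (-0.95 to 0.36) and -0.28 (-0.93 to 0.37). The beta subunits stood at -0.08 and 0.20 (Gabrb1) and at 0.01 and 0.03 (Gabrb2).

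The remaining genes of GABA signalling were taken as lists. Of 12 other ionotropic GABA receptor subunits, 7 passed the filter, and 0 were higher and 5 lower in Control_TRAP than in Control_total-RNA (4 lower in EtOH, 3 in EtOH+ABT-888). Gabrg1, a gamma subunit, was at -2.52 in Control. The median log2 fold change of the 7 was -0.92, beside -0.25 for the members and 0.02 for all genes tested. Between Control_TRAP and Control_total-RNA, 59.9% of all genes tested were called, 4148 higher and 4280 lower. In total-RNA with EtOH, 2 of the 7 rose and 0 fell, where 17.6% of all genes were called, 1272 higher and 1210 lower. The counts of the lists below stand against the same shares, and nothing particular to a list is read from them. Gabrr2, a rho subunit, had 8, 8 and 16 counts in Control_total-RNA and 83, 107, 67 and 52 counts in EtOH_total-RNA, a log2 fold change of 2.85 (2.17 to 3.54, adjusted p = 0.000322) from a very low level. Gabrg1, the neighbour of Gabra2 in the chromosome 5 cluster, had 28.6, 26.8 and 33.8 CPM in Control and 46.7, 43, 42 and 53.7 CPM in EtOH, a log2 fold change of 0.64 (0.36 to 0.92, adjusted p = 0.00609), opposite to Gabra2.

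Of 22 genes that anchor, assemble or move the receptor, 12 were higher and 6 lower in Control_TRAP, with Gabarapl2 at 1.05, Plcl1 at -1.43 and Clptm1 at 0.84. With EtOH in total-RNA 4 of the 22 rose and 0 fell, among them Hap1 (0.64, adjusted p = 0.0158), which carries receptors along microtubules, Gabarapl2 (0.37, adjusted p = 0.0281) and Shisa7 (0.35, adjusted p = 0.0396). Of 8 genes of GABA synthesis, transport and breakdown, 4 were higher and 4 lower in Control_TRAP. The vesicle transporter Slc32a1 was at 2.52 and the synthesising enzyme Gad1 at 1.24, and the astrocyte transporter Slc6a11 at -2.54. Slc32a1, Gad1 and Gad2 also stand in the interneuron marker list above. With EtOH in total-RNA 3 of the 8 rose and 0 fell, among them Gad2 (0.40, adjusted p = 0.0291), which makes GABA, and Abat (0.31, adjusted p = 0.0423), which breaks it down. The summed interneuron markers, Gad1, Gad2 and Slc32a1 among them, were higher in the same EtOH libraries, as given above, and their part in this was not tested. Apart from Gabrr2 and Gabrg1, each of the EtOH calls named here was lost without at least 1 library, and all of them except Gabrr2 were lost in the single fit over all 22 libraries.

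Of 5 genes of the GABA-B receptor, Gabbr1 (0.84) and Kctd8 (0.48) were higher and Gabbr2 (-1.20) lower in Control_TRAP, and with EtOH in total-RNA only Gabbr2 was called, at -0.31 (adjusted p = 0.0408). That call was lost in 5 of the 7 fits that left out a library (-0.34 to -0.27, adjusted p between 0.0726 and 0.186) and in the single fit (-0.31, adjusted p = 0.411). Of 5 genes of chloride transport, 4 were lower in Control_TRAP, led by the importer Slc12a2 at -2.43, with Stk39 at -0.71 and Wnk1 at -0.67, and 1 was higher. Of 7 genes of neurosteroid and benzodiazepine-site ligands, 3 passed the filter, with Srd5a3 higher (0.69) and Dbi lower (-1.29) in Control_TRAP. In the last 2 lists 0 genes were called against Control for EtOH in total-RNA, and in none of the 6 lists was a gene called against Control in TRAP, for EtOH+ABT-888 in total-RNA, between EtOH+ABT-888 and EtOH, or in the interactions.

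The genes whose pattern over the 22 libraries was most like each member were found by the root mean square difference in centred log2 CPM. For Gabra2 they were Ggcx (0.293) and Hexa (0.314), for Gabra3 Tnfrsf19 (0.165) and Pls3 (0.186), and for Gabra4 Cnot7 (0.127) and Clvs1 (0.156). For Gabra5 they were Apc (0.184) and Lsamp (0.189), for Gabrb1 Mpp5 (0.177) and Ccdc148 (0.187), for Gabrb2 Gdap1 (0.114) and Scn2a (0.118), and for Gabrd Syndig1 (0.159) and Timm13 (0.177). Among the members, Gabra3 and Gabra5 were the closest pair, at 0.276, and Gabra3 and Gabrd the farthest, at 1.66. Of the 7 members, Gabra2 was the one whose nearest gene lay farthest from it. These are descriptions over libraries of 6 groups, with no test.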

How the data were processed

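RNA of the PFC was measured in 11 mice as TRAP and total-RNA libraries. Per the labels and the paper's methods, the authors depleted ribosomal RNA, aligned reads to mm10 with STAR and counted them per gene with featureCounts. The deposited values are raw counts of whole reads without normalization. Strand setting, treatment of multi-mapping reads and tool versions are not given in the sources used here.

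Names, positions and lengths came from GENCODE M21, which held 38872 of the 39056 genes. The tests ran in edgeR 4.0.16 under R 4.3.3. Genes with at least 500 counts in total and detected in at least 3 libraries were kept, TMM factors were computed, and the quasi-likelihood test was fitted to the libraries compared (all 22 for interactions), with adjustment over 14072 genes. Intervals are 95% intervals of the fit. Levels used TMM factors over all 22 libraries, and log2 CPM a prior count of 1. Scripts were tested on simulated data.

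The members and gene lists were chosen with earlier results of these data known. All 7 members are named in every comparison. Of each other list, at most 3 called genes with the smallest p-values are named, and the 2 most alike protein-coding genes per member. Some genes of these lists count in the sums and counts but are not reported here by name. Libraries with the same animal number in the labels were taken as pairs, and the correlation of their deviations from the group means was 0.102 to 0.622, highest with its own partner for 10 of 11 animals. No pair of libraries within a group was a duplicate (lowest chi-square per degree of freedom 9.69). Alternatives were RLE factors, no filter, DESeq2 1.42.0, exactTest or the likelihood ratio test, a single fit, the animal as a block, transcript length and leaving out each library.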

Additional observations from a re-analysis of the deposited data

Results flagged for a closer look

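In groups of 4 libraries, a library was looked at again where its gap to the nearest of the others took up more of the group's range than Dixon's test allows at the 95% level. Of 28 groups of members, 4 held such a library, and chance alone flags about 1 group in 20. Gabra2 was 69.0 CPM in EtOH+ABT-888_TRAP animal 3, where the other 3 libraries had 40.5 to 42.6 CPM. Gabra3 was 55.9 CPM in EtOH+ABT-888_TRAP animal 11 beside 63.2 to 64.0 CPM, and 239 CPM in EtOH+ABT-888_total-RNA animal 10 beside 182 to 186 CPM. Gabrd was 126 CPM in EtOH_TRAP animal 5 beside 148 to 150 CPM. Among the marker sums, endothelial and pericyte markers reached 25.4 CPM in EtOH_TRAP animal 2, where the others had 4.78 to 7.03 CPM.

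For Gabrd, every EtOH library was higher than every Control library in TRAP, a difference that was not called (0.32, adjusted p = 0.169), and every EtOH library was lower in total-RNA (-0.37, adjusted p = 0.0422). How many of all genes separate in this way was not counted. The interaction was 0.68 on the log2 scale (unadjusted p = 0.00174) and did not pass the adjustment over all genes (adjusted p = 0.556 by edgeR's quasi-likelihood test, 0.122 to 0.801 over its other settings). Over the fits that each left out a library it was 0.61 to 0.73.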

How the results depend on the processing

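Of 406 values of members under another setting, 392 kept their direction and their side of the threshold, and of 770 values with a library left out, 709 did. No called member changed direction. The calls of Gabrd, Gabra4, Gabra3, Gabra5 and Gabrb1 between TRAP and total-RNA held in every setting. With 3 or 4 animals per group, the comparisons with Control turn on single libraries, and the cause of the changes below was not tested.

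The number of members called for EtOH+ABT-888 in TRAP was 1 instead of 0 without the filter, by DESeq2 and by exactTest, each time Gabra2. In the single fit over all 22 libraries it was 0 instead of 2 for EtOH and 0 instead of 1 for EtOH+ABT-888 in total-RNA. With each library left out, it was 0 to 1 for EtOH and 0 to 1 for EtOH+ABT-888 in TRAP, 0 to 4 for EtOH and 0 to 1 for EtOH+ABT-888 in total-RNA. Genes called with all libraries kept, for EtOH in TRAP, numbered 737 and up to 1491 (DESeq2), for EtOH+ABT-888 in TRAP 67 and up to 454 (no filter), for EtOH in total-RNA 2482 and as few as 151 (single fit), and for EtOH+ABT-888 in total-RNA 37 and up to 621 (DESeq2). For the EtOH interaction they numbered 3 and up to 16, and for that of EtOH+ABT-888 0 and up to 6. With each library left out, the genes called were 84 to 1550 for EtOH and 0 to 373 for EtOH+ABT-888 in TRAP, 878 to 3616 and 0 to 870 in total-RNA, and 1 to 6 and 0 to 1 in the interactions.

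With the animal as a replicate block, members called numbered 7, 6 and 6 for TRAP against total-RNA in Control, EtOH and EtOH+ABT-888 instead of 6, 5 and 5. Among all 14072 genes tested the calls rose as well, to 8788, 8276 and 7642 instead of 8428, 7141 and 5769. Nothing particular to the members is read from their added calls. In both interactions 0 members were called with the block. The block changed no other call of a member. The longest coding transcript as length put the share of Gabra4 in Control_TRAP at 36.5% instead of 34.8%.

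Values of members that were not called turned sign near 0. Gabrb1 for EtOH+ABT-888 in TRAP was -0.01 without the filter and -0.00056 in the single fit. Without single libraries the ranges were -0.18 to 0.32 for Gabra2, TRAP against total-RNA in EtOH; in TRAP against Control, -0.20 to 0.15 for Gabra5 with EtOH, and -0.18 to 0.20 for Gabra5 and -0.11 to 0.09 for Gabrb1 with EtOH+ABT-888. In total-RNA, Gabra4 with EtOH+ABT-888 was -0.22 to 0.03. For EtOH+ABT-888 against EtOH, the ranges in TRAP were -0.19 to 0.15 (Gabra4), -0.12 to 0.17 (Gabra5) and -0.01 to 0.13 (Gabrb2), and in total-RNA -0.19 to 0.15 (Gabra2), -0.09 to 0.06 (Gabra3), -0.22 to 0.16 (Gabra5) and -0.10 to 0.22 (Gabrb1). For the EtOH interaction they were -0.49 to 0.02 (Gabra2), -0.20 to 0.12 (Gabrb1) and -0.05 to 0.07 (Gabrb2), and for that of EtOH+ABT-888 -0.03 to 0.06 (Gabrb2).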
